A study of Mus musculus with 2 samples.

Results

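Of the 4409 GATA4 occupied sites (GATA4 OS) in adult mouse liver, 703 (15.9%, Wilson 95% interval 14.9 to 17.1) lay outside protein-coding genes and far from the starts of their protein-coding transcripts. A site was counted as distal when its midpoint fell outside the body of every protein-coding gene of GENCODE M1 and more than 50 kb from the nearest transcription start site (TSS) of a protein-coding transcript. The rule used position alone, and the distance to the far end of a gene was not part of it. GATA4 was immunoprecipitated with antibody C-20 (Santa Cruz sc-1237) from whole liver of mice of the strain C57BL/6 x Sv129, labelled as postnatal 2-3 months, and input DNA from liver was the background of the peak calls. The mice carried no allele or treatment that the labels name. There were 2 biological replicates of 2 mice each, which the files hold as 1 pooled sample, so sites and not animals are the units below. The input sample was not analysed here as values of its own. Whole liver contains hepatocytes, sinusoidal endothelial cells, stellate cells, Kupffer cells and bile duct cells, and the cell type in which a site was occupied cannot be read from these peaks. The paper reports that excising Gata4 from hepatocytes removed GATA4 from every site it then examined by ChIP-qPCR, and reads occupancy there as hepatocytic. Distal sites as a class were not examined in that way.

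GATA4 is a zinc-finger transcription factor that binds the sequence WGATAR, where W is A or T and R is A or G. It takes part in the formation of the heart, the gut endoderm and the liver, and in the adult liver it is found in hepatocytes and in sinusoidal endothelium. Regulatory factors of this kind commonly occupy enhancers, which can lie far from the promoter they act on and can skip genes in between. The nearest gene is therefore a label of position and not a known target.

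The sequences under the sites at the head of the list show what a distal GATA4 OS looks like. The number of a site is its place in the common list, 1 being first, and the common list keeps the order of the SPP list that it took its coordinates from. Bases are those of the mm9 reference, WGATAR on either strand is in capitals (TTATCT is AGATAA read on the other strand), and a peak above 300 bp is shown by its central 300 bp. The first sites shown stood among the first 10 distal sites by number, named for the nearest protein-coding gene.
Tmem2 no. 28, chr19:21988674-21988973, plus strand: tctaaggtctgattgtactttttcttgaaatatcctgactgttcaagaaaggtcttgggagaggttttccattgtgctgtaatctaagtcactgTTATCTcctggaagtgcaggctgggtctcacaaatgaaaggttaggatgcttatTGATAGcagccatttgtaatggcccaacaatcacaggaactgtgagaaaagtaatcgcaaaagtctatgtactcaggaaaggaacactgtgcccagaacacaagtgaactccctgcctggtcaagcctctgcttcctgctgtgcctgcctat
Erg no. 41, chr16:95858315-95858551, plus strand: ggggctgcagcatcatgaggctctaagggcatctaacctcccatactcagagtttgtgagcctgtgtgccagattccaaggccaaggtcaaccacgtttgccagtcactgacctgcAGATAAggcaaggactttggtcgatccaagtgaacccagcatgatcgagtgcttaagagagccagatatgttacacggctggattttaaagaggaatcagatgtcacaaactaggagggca
Ptpn1 no. 78, chr2:167692365-167692641, plus strand: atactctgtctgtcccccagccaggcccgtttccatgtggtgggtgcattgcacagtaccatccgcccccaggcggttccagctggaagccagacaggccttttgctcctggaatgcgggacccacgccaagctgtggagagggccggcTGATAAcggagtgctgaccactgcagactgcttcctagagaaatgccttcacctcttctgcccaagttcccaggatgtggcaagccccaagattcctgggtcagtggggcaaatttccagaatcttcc
S1pr1 no. 103, chr3:115344420-115344689, plus strand: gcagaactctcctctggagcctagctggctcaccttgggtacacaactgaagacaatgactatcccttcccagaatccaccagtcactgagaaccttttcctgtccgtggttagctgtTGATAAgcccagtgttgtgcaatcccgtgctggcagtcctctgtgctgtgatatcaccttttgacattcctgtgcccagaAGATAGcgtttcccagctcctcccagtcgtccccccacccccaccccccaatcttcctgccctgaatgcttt
The site nearest to Tmem2, a cell-surface hyaluronidase, was the first distal site in the list at no. 28, and held 2 WGATAR in the bases shown. The site nearest to Erg, an ETS factor of endothelium, lay 50.2 kb upstream of its TSS, just past the limit of the rule. Ptpn1 encodes a phosphatase that dampens insulin signalling, and S1pr1 a sphingosine-1-phosphate receptor of endothelium.

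Further sequences were chosen for their motifs or their gene. The site near Sox11 lay 481 kb from a TSS and had 4 WGATAR, and that near 4833424O15Rik had 5. Within the peak as called, no distal site had more, and 1 near Bambi also had 5. The sites near Lifr, the receptor subunit for leukaemia inhibitory factor, near Gata4 itself and near Bmp2, a BMP ligand of liver endothelium, had 3 each. The site farthest from any TSS had 1. The site near Cd83 is shown because it had none although it was no. 488.
Sox11 no. 202, chr12:28508300-28508579, plus strand: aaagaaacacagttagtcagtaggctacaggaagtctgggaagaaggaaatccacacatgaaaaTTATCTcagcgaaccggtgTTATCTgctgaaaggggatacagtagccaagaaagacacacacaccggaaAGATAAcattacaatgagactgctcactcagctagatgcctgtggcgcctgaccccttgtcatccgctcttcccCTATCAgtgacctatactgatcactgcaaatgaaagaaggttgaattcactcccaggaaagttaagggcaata
4833424O15Rik no. 377, chr3:117211133-117211347, plus strand: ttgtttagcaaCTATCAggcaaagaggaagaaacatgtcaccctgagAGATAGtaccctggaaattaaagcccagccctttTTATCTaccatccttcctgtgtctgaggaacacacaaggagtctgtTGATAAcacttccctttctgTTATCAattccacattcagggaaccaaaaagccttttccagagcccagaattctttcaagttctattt
Lifr no. 207, chr15:7020278-7020537, plus strand: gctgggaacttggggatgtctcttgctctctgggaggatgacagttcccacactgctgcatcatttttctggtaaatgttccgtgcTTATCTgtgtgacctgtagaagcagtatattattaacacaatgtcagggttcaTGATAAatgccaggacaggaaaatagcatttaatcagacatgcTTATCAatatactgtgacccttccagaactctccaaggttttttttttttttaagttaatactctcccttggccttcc
Gata4 no. 357, chr14:63962453-63962728, plus strand: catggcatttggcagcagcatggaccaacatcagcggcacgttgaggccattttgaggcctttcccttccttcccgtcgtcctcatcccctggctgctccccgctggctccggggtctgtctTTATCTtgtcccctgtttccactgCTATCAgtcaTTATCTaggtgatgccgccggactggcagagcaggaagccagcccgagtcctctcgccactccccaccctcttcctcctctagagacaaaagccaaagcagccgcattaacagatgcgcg
Bmp2 no. 621, chr2:133443141-133443327, plus strand: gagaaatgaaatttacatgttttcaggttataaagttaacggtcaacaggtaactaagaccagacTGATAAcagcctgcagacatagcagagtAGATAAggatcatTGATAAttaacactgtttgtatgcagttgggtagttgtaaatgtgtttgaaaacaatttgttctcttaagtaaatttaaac
1700009N14Rik no. 2495, chr4:38281949-38282066, plus strand: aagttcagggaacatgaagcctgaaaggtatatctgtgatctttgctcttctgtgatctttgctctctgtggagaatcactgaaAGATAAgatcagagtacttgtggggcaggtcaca
Cd83 no. 488, chr13:44161088-44161313, plus strand: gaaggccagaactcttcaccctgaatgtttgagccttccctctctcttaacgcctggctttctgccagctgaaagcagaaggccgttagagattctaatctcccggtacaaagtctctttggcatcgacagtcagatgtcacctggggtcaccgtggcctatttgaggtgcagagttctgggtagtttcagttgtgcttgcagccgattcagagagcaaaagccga

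Distal sites were sparse for the sequence open to them. Sequence meeting the rule made up 1003 Mb, 39.2% of the 2559 Mb of called bases on the chromosomes used, and it held 0.701 sites per Mb. Gene-flanking sites, outside gene bodies at 1 to 50 kb from a TSS, numbered 1102 at 2.02 per Mb. Intragenic sites numbered 1953 at 2.05 per Mb, and promoter sites, within 1 kb of a TSS, numbered 651 at 11.04 per Mb. Distal sequence thus held fewer sites per Mb than any other class.

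Within the distal class the density fell with distance. Between 50 and 100 kb from a TSS there were 330 sites in 222 Mb (1.49 per Mb), from 100 to 200 kb 214 sites in 241 Mb (0.887 per Mb) and from 200 to 500 kb 137 sites in 311 Mb (0.44 per Mb). Beyond 500 kb, 227 Mb held 22 sites (0.0967 per Mb). The median distance was 107 kb (quartiles 72.0 and 187 kb). The fall is a description of 1 pooled sample and has no replicate error. Only uniquely placed reads had been kept, and of 1405 windows of 200 bp taken 5 kb to either side of the distal sites, 34.5% held a 24-base word with 5 or more copies in the genome, against 40.7% of the windows beside gene-flanking sites and 34.1% beside all sites. Of the distal sites themselves, 7.4% held one in their central 200 bp (all 4409 sites, 7.39%). Only windows beside called sites were counted, so these shares do not describe distal sequence as a whole. The part of such words in the density was not tested.

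**Figure D1:**
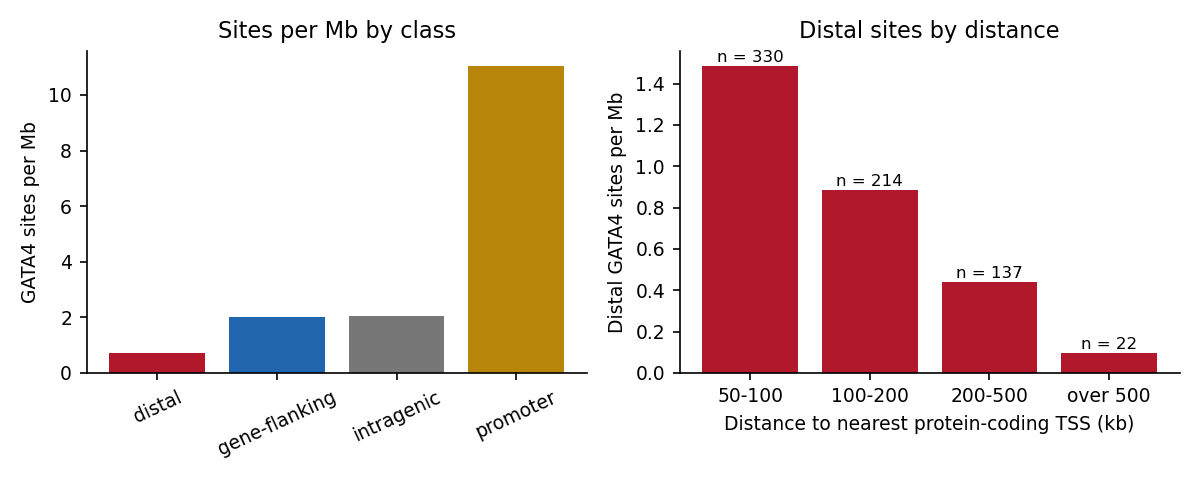
GATA4 OS per Mb of called sequence in each class of position (left) and, for the distal sites, by distance to the nearest protein-coding TSS in kb (right), with the number of sites above each bar. Distal sequence holds 0.701 sites per Mb, and the bars fall from 1.49 per Mb at 50 to 100 kb to 0.0967 per Mb beyond 500 kb.

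The limit of 50 kb cuts through a continuous range. The sites just inside it lay 50024 bp from 1700025G04Rik (no. 4096), 50031 bp from Amotl2 (no. 2081) and 50199 bp from Gm10287 (no. 2276). Those just outside lay 49993 bp from Rbms1 (no. 2746), 49876 bp from Gpc5 (no. 2776) and 49763 bp from Stim2 (no. 3756). At the other end, the farthest site was no. 2495, 1115 kb upstream of 1700009N14Rik. It was followed by no. 3318 near Chrm3, a muscarinic receptor gene (1076 kb), no. 4180 near Nmbr, a neuromedin receptor gene (999.9 kb), no. 3014 near Robo1, an axon guidance receptor gene (924 kb), and no. 3249 near Pcdh17, a protocadherin gene (894 kb). All 5 of the farthest sites stood in the trailing 50% of the list, and each held 1 or 2 WGATAR.

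Upstream and downstream positions were about equally common. Relative to the nearest protein-coding gene, 375 sites (53.3%, 49.6 to 57.0) lay upstream of its TSS and 328 lay downstream. The distal sequence on each side was not counted, and the rule leaves out gene bodies, which lie downstream of a TSS. A preference for either side was therefore not tested. The midpoint of 30 sites (4.27%) fell in the body of a gene that is not protein-coding, 17 in a lincRNA and 13 in a gene annotated as a processed transcript. The first of these by number was no. 64, nearest to Psmg1 (129 kb), in the body of 1600002D24Rik. The median distance to the TSS of a gene that is not protein-coding was 102 kb, and 9 sites lay within 1 kb of one.

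Chromosomes differed in how much of their binding was distal. The share of the sites that were distal ranged from 7.23% on chromosome 11 to 30.7% on chromosome 13, where 62 of 202 sites were distal. Per Mb of distal sequence, chromosome 13 held 1.27 sites and chromosome 10 held 1.07. Chromosome X, with 79.0 Mb of distal sequence, held 7 distal sites (0.0886 per Mb) among 30 sites in all. Chromosome Y had none of the 4409 sites.

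Most distal sites held the motif of the factor. In the central 200 bp, 603 of 703 distal sites held at least 1 (85.8%, 83.0 to 88.2), against 945 of 1102 gene-flanking sites (85.8%) and 83.9% of all 4409 sites. The difference from gene-flanking sites was 0.02 percentage points (95% interval -3.36 to 3.26, two-sided Fisher's exact test on sites, adjusted p = 1). Against all 3706 other sites, of which 83.6% held 1, the difference was 2.21 points (-0.80 to 4.89, Fisher's exact test, adjusted p = 0.43). All p-values on sites were adjusted by Benjamini and Hochberg over 32 comparisons. They treat sites as independent, although neighbours share their sequence and all come from 1 pooled sample.

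Windows of the same length 5 kb to either side gave the level of WGATAR in the surroundings. They held 1 in 34.8% of 1405 windows beside distal sites (32.4 to 37.3), in 30.6% of those beside gene-flanking sites (28.8 to 32.6) and in 30.7% beside all sites. This difference in the surroundings was not tested. Matches gathered at the peak midpoint. The bins of 20 bp next to it held 24.6 and 24.7 matches per 100 distal sites, compared with a mean of 4.79 per bin beyond 300 bp. The WGATAR nearest to the midpoint lay within 20 bp in 323 of the 603 sites (53.6%) and within 50 bp in 545 (90.4%), with a median of 19 bp.

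**Figure D2:**
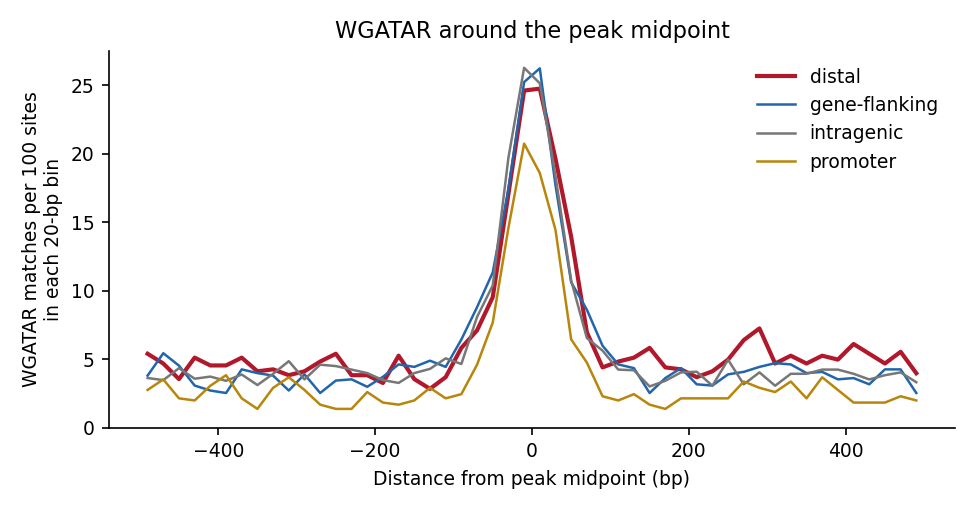
WGATAR matches per 100 sites in bins of 20 bp against distance from the peak midpoint in bp, for distal (red), gene-flanking (blue), intragenic (grey) and promoter (gold) sites. The distal curve peaks at 24.7 per 100 sites in the bins at the midpoint, above a mean of 4.79 beyond 300 bp, close to the gene-flanking and intragenic curves.

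Many distal sites carried more than 1 WGATAR. There were 340 sites with 1, 214 with 2, 38 with 3 and 11 with 4 or more, so that 263 sites (37.4%) had 2 or more, beside 35% of all sites. Gene-flanking sites had 38.3%, a difference of -0.88 points (-5.43 to 3.72, Fisher's exact test, adjusted p = 0.93). In the 327 neighbouring pairs of matches, 162 pointed the same way, 71 faced each other and 94 pointed apart. The median spacing between starts was 45 bp, and no spacing with its orientation occurred more than 5 times.

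The remaining 100 distal sites had no WGATAR in the central 200 bp. Of these, 41 also lacked the shorter words WGATA and GATAR on both strands. The site near Cd83 printed above is among the 100. Sites without WGATAR were spread along the list, with 46 of 100 in its leading 50%, nos. 1 to 2204 (36.6 to 55.7), against 179 of 340 sites with 1 (52.6%, 47.3 to 57.9) and 149 of 263 with 2 or more (56.7%, 50.6 to 62.5). These intervals overlap, and the differences were not tested.

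AGATAA was the most frequent form of the motif. It made up 400 of the 930 matches in distal sites (43.0%, 39.9 to 46.2), followed by TGATAA with 269 (28.9%), AGATAG with 158 (17.0%) and TGATAG with 103 (11.1%). The gene-flanking sites had 45.3% AGATAA (42.8 to 47.8) and 27.4% TGATAA. With 1 base added to each side, the leading words were CAGATAAG, with 60 of 927 matches (6.47%), GAGATAAG with 59 (6.36%), CTGATAAC with 45 (4.85%) and CTGATAAG with 43 (4.64%). C was the base before the motif in 37.6% of matches and G the base after it in 38.0%, more often than any other base.

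Distal sites stood throughout the list. All scores in the files are 1000 and carry no information on strength, and the number of the peak was used instead. What the numbers rank is not written in the files, and the methods speak of SPP peaks ordered by signal value. In the leading 50% of the list, up to no. 2204 (50% of all sites by construction), stood 374 distal sites (53.2%, 49.5 to 56.9) and 593 gene-flanking sites (53.8%). The difference was -0.61 points (-5.32 to 4.09, Fisher's exact test, p = 0.81, adjusted p = 1). Against all other sites, of which 49.4% stood there, it was 3.82 points (-0.21 to 7.82, Fisher's exact test, adjusted p = 0.26). Ordered by MACS2 number instead, 50.5% of distal and 54.5% of gene-flanking sites stood in the leading 50%. That difference was -4.04 points (Fisher's exact test, adjusted p = 0.35). Cut into 10 stretches of equal size, the common list held between 62 and 85 distal sites in each, or 14.1% to 19.3%.

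By distance, the share in the leading 50% was 56.1% (50.7 to 61.3) at 50 to 100 kb, 53.3% (46.6 to 59.8) at 100 to 200 kb and 50.4% (42.1 to 58.6) at 200 to 500 kb. Beyond 500 kb it was 6 of 22 sites (27.3%, 13.2 to 48.1). WGATAR was found in 83.6%, 86.0%, 90.5% and 86.4% of the sites in the same 4 bands. The bands were not tested against each other, and the last rests on few sites.

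**Figure D3:**
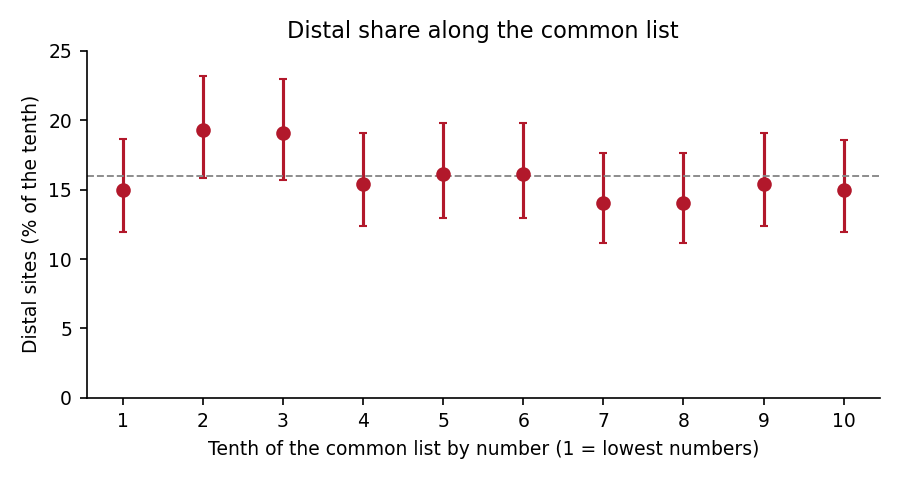
Share of distal sites in each of 10 stretches of the common list by number (440 or 441 sites each), in percent, with Wilson 95% intervals, and the share over the whole list as a dashed line at 15.9%. The shares range from 14.1% to 19.3%, and each interval includes the dashed line.

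The width of a peak moved with the number. The commonest width was 320 bp, which 180 distal sites (25.6%) and 252 gene-flanking sites (22.9%) had, and 18 of these 180 distal sites stood in the leading 50% of the list. The median width was 189 bp in both classes.

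Distal peaks also occurred among those found by only 1 of the callers. Of the 402 SPP peaks that met no MACS2 peak, 71 were distal (17.7%, 14.2 to 21.7), a difference of -1.72 points for the common list (-5.88 to 1.88, Fisher's exact test, adjusted p = 0.67). Of the 1496 MACS2 peaks that met no SPP peak, 222 were distal (14.8%, 13.1 to 16.7), a difference of 1.11 points (-1.06 to 3.15, Fisher's exact test, adjusted p = 0.65).

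Motifs of other factors were searched on both strands of the central 200 bp. FOXA factors open liver enhancers, and the FOX words TGTTTAC and TGTTTGC occurred in 110 distal sites (15.6%, 13.1 to 18.5), against 12.2% of all sites. Gene-flanking sites had 12.4%, and the difference of 3.21 points (-0.04 to 6.61) did not pass (Fisher's exact test, adjusted p = 0.26). Against all other sites, with 11.5%, the difference of 4.15 points (1.44 to 7.19) passed (Fisher's exact test, adjusted p = 0.027). The windows beside distal sites had FOX words in 6.48%, and those beside gene-flanking sites in 5.72%. The other sites include the promoter sites, whose GC content was higher (median 58%, against 47% for distal and 49% for gene-flanking sites), and the part of base composition in the difference was not tested.

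KLF words were less common in distal sites. KLF and SP factors bind GC-rich CACCC boxes, and CCNCACCC occurred in 30 distal sites (4.27%, 3.01 to 6.03), in 85 gene-flanking sites (7.71%) and in 7.05% of all sites. The difference was -3.45 points from gene-flanking sites (-5.58 to -1.18, Fisher's exact test, adjusted p = 0.032) and -3.31 points from all other sites (-4.86 to -1.38, adjusted p = 0.027). The surroundings differed as well, with CCNCACCC in 3.84% of windows beside distal sites and 6.22% of those beside gene-flanking sites. The 30 distal sites with the word had a median GC content of 50.5%.

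The CTCF core was found in none of the 703 distal sites. CTCF is the architectural factor that bounds chromatin loops. A count of 0 allows a share of up to 0.427% by 3 counts of 703 and of up to 0.543% by the Wilson interval, while 13 gene-flanking sites (1.18%) and 0.703% of all sites held a match. The difference from gene-flanking sites was -1.18 points (-2.01 to -0.45, Fisher's exact test, adjusted p = 0.027). That from all other sites, with 31 matches, was -0.84 points (-1.19 to -0.24) and did not pass (Fisher's exact test, adjusted p = 0.068). Windows beside distal sites held 3 matches in 1405 (0.214%).

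The words of other liver factors did not pass the test in either comparison. C/EBP factors act in hepatocyte metabolism, and TTGCNNAA stood in 99 distal sites (14.1%, all sites 12.7%), above the 8.9% of their windows. AP-1, TGANTCA, stood in 60 (8.54%, all sites 7.3%) with 5.48% in the windows. SOX, ACAATGG or ACAATAG, stood in 42 (5.97%, all sites 5.94%) with 6.19% in the windows. ETS, CCGGAAG, stood in 21 (2.99%, all sites 4.72%) with 0.142% in the windows. The nuclear receptor HNF4 has the words CAAAGTCCA and CAAAGGTCA, which stood in 17 (2.42%, all sites 2.54%) with 0.285% in the windows. HNF1, GTTAATNAT, stood in 10 (1.42%, all sites 1.13%) with 1.21% in the windows. Adjusted p-values of these 12 comparisons ran from 0.1 to 1 by Fisher's exact test, the lowest for ETS against all other sites (a difference of -2.06 points, -3.33 to -0.39).

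The composite of CTG and GATA, 7 or 8 bases apart, is known from erythroid enhancers bound by GATA1 and TAL1. It occurred in 87 distal sites (12.4%, all sites 11%) and in 11.6% of gene-flanking sites, a difference of 0.76 points (-2.25 to 3.93, Fisher's exact test, adjusted p = 0.87). It stood in 5.55% of the windows beside distal sites. The composite contains GATA and is not independent of the GATA words counted above.

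**Figure D4:**
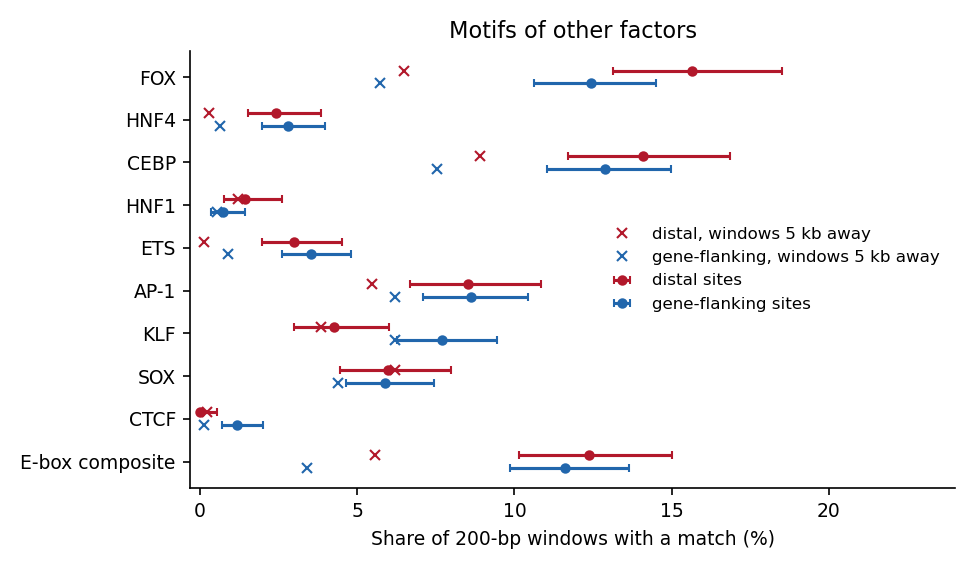
Share of 200-bp windows with a match to each motif, in percent. Circles with Wilson 95% intervals are distal (red) and gene-flanking (blue) sites, and crosses are the windows 5 kb to either side. FOX is at 15.6% and KLF at 4.27% of distal sites, and CTCF at 0% of distal and 1.18% of gene-flanking sites.

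Some distal sites stood close together. Another common site lay within 10 kb of 155 distal sites (22.0%, all sites 19.8%), against 20.4% of gene-flanking sites, a difference of 1.63 points (-2.19 to 5.57, Fisher's exact test, adjusted p = 0.73). The direction turned with the distance allowed. Within 5 kb the difference was -1.26 points, and within 50 kb distal sites had a neighbour less often (45.4% against 52.2%, -6.80 points, Fisher's exact test, adjusted p = 0.033). The rule puts gene-flanking but not distal sites within 50 kb of a TSS, and promoter sequence held 11.04 sites per Mb. The comparison at 50 kb is therefore not independent of the rule. The nearest neighbour was itself distal for 148 of the 155. The rule leaves promoter sites no place within 10 kb of a distal site, and gene-flanking sites only near the 50 kb limit. Within 1 kb of another site lay 34 distal sites, and 24 shared their MACS2 peak with another common site. With gaps of up to 50 kb allowed between distal sites, 427 (60.7%) stood alone, and 122 made up 34 chains of 3 or more sites. There were 4 chains of 5 sites and 12 of 4.

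Of the 4 chains of 5 sites, 3 are described here, beside Ptpn1, Cd83 and Raph1. The chain between Cebpb and Ptpn1 spanned 61.3 kb on chromosome 2. Its first site, no. 4403, was nearest to Cebpb, the gene of the C/EBP factor that acts in liver regeneration (117 kb downstream), and the others, nos. 78, 1532, 3834 and 4075, lay 65.3 to 109 kb upstream of Ptpn1. The chain near Cd83, which encodes a surface protein of dendritic cells, spanned 41.1 kb at 241 to 282 kb downstream, with nos. 488 to 3909. The chain near Raph1 and Cd28 took 15.8 kb on chromosome 1, with no. 547 first. In each of these 3 the first site by number was no. 547 or lower and the last was no. 3909 or higher.

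Of the 12 chains of 4, those beside Lifr, Bmp2, Tmem2, Gli2, Zfp36l1 and Apoo-ps are described here. Upstream of Lifr, 62.2 kb on chromosome 15 held nos. 207, 1187, 3021 and 3090 at 56.1 to 118 kb from the TSS. Nos. 207 and 1187 had 3 WGATAR each in the central 200 bp, and the other 2 sites had 1 each. Upstream of Bmp2, nos. 359, 638, 2662 and 2964 spanned 67.0 kb. Downstream of Tmem2, nos. 28, 2667, 3044 and 3559 spanned 29.4 kb, and all of them had WGATAR. Between Gli2, a transcription factor of hedgehog signalling, and Inhbb, which encodes an activin subunit, nos. 173, 1770, 2293 and 4002 spanned 47.4 kb, and only no. 173 had WGATAR in the central 200 bp. Downstream of Zfp36l1, whose product speeds the decay of AU-rich mRNAs, nos. 326, 348, 1831 and 3534 spanned 76.4 kb at 206 to 282 kb. The chain beside Apoo-ps, a gene annotated as protein-coding whose name marks a pseudogene, spanned 47.9 kb with no. 692 first.

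The 703 sites were nearest to 478 protein-coding genes, 2.14% of the 22359 that had a TSS. Of these genes 342 had 1 distal site, 84 had 2, 31 had 3 and 21 had 4 or more. Names of clones, predicted genes or pseudogenes accounted for 74. Another common site lay in the gene body or within 50 kb of a TSS for 188 of the 478 (39.3%, 35.1 to 43.8), whereas 24.7% of all 22359 genes had a site there. Counted by site, 287 of the 703 (40.8%, 37.3 to 44.5) had such a gene as their nearest. For the other distal sites the nearest gene had no GATA4 OS in its body or within 50 kb of a TSS. Distal sites lie beyond this reach by the rule, so other distal sites of the same gene do not enter the count. The difference between 39.3% and 24.7% was not tested.

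Gm10295, a predicted gene on chromosome 7, was nearest to 11 distal sites, more than any other gene. They lay 61.6 to 420 kb from its TSS on both sides, and 9 of the 11 were no. 1519 or lower. The gene stands in a wide gap of 1711 kb between Nr2f2, which encodes the nuclear receptor COUP-TFII of veins and stellate cells, and Mctp2, with 2 protein-coding genes in between. This gap, picked after its values were seen, held 14 distal sites (8.18 per Mb), from no. 160 to no. 3714, of which 13 had WGATAR and 12 stood in the leading 50% of the list.

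Other genes with many distal sites had them on 1 side, except Bmp2. Cd83 had 7 at 75.8 to 282 kb downstream. Maf, an endothelial and macrophage transcription factor, had 6 at 56.7 to 286 kb downstream, in 0.653 Mb of distal sequence. Ets1, a transcription factor of endothelium and lymphocytes, had 5 at 64.8 to 405 kb downstream, and Phlda1 had 5 at 69.8 to 170 kb downstream. Bmp2 had 4 upstream and 1 downstream. Tmem2, Ptpn1 and Lifr had 4 each. The distal sequence nearest to them was 0.0717 Mb for Ptpn1, 0.0794 Mb for Lifr and 0.113 Mb for Tmem2, so the 4 sites of each stood in little sequence.

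**Figure D5:**
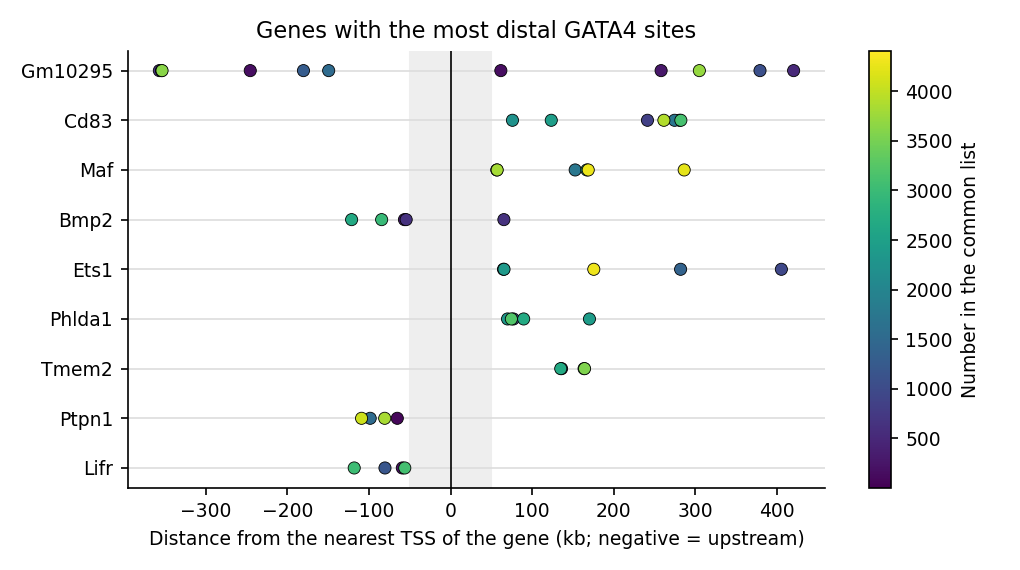
Distal sites of 9 of the 10 genes with the most of them (ties at 4 by lowest number), against the distance in kb from the nearest TSS of the gene (negative is upstream), coloured by number in the common list (dark is low). The grey band is the 50 kb that the rule leaves out. Sites of Cd83, Maf, Ets1, Phlda1 and Tmem2 all lie downstream, those of Ptpn1 and Lifr upstream, and those of Gm10295 and Bmp2 on both sides.

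Lists of genes by role showed where distal sites stood beside known liver genes. The lists were written with earlier results of these data known, and their order depends on which genes were chosen. Their counts are descriptions beside the 2.14% of all genes and the 0.701 sites per Mb of all distal sequence. The 0.701 is not matched for distance, and sequence at 50 to 100 kb held 1.49 per Mb. Liver endothelial genes had the most sites of the 8 lists, 41 nearest to 19 of 97 genes (19.6%), and the most per Mb of the distal sequence nearest to them, 3.15. They also had the highest share of genes with a site in the body or within 50 kb of a TSS, 67 of 97 (69.1%) against 24.7% of all genes. Their sites lay at a median of 77.8 kb, and of the 41, 6 were nearest to Maf and 5 each to Bmp2 and Ets1. Beside Erg (no. 41) and S1pr1 (nos. 103 and 243, 71.0 kb downstream and 77.8 kb upstream) they included Clec14a, an endothelial surface protein gene (no. 144, 54.9 kb upstream), and Tgfbr2, a TGF-beta receptor gene (no. 241, 163 kb upstream). Kdr, the receptor for VEGF-A, had no. 1389 at 85.2 kb upstream, and Sox17, a transcription factor of arterial endothelium and endoderm, had nos. 707 and 2770 at 75.4 and 121 kb upstream.

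Liver transcription factors had 16 sites nearest to 12 of 57 genes (21.1%), at 1.9 per Mb. The first by number were Bcl6, a repressor (no. 868, 115 kb upstream), Tbx3 (no. 997, 95.4 kb upstream) and Foxo1, which drives gluconeogenic genes (no. 1253, 136 kb downstream, no WGATAR in the peak). Prox1, needed for hepatocytes and lymphatics, had no. 1662 at 268 kb upstream, and Ppargc1a, a coactivator of gluconeogenesis, had no. 1977 at 309 kb upstream. Nr2f2 had nos. 1696 and 2195 at 553 and 449 kb downstream, and Nr5a2, a regulator of bile acid synthesis, had no. 2271 at 114 kb upstream. Of the whole list, 35 genes (61.4%, all genes 24.7%) had a site in the body or within 50 kb of a TSS.

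The GATA and FOG list had 5 sites nearest to 2 of 8 genes (25%), at 2.39 per Mb. Gata4 had nos. 357, 3094 and 3699 at 72.1, 67.0 and 54.4 kb upstream, a chain in which no. 357 held 3 WGATAR and no. 3094 none in the peak. Gata6, the other GATA factor of liver, had no. 3558 at 75.9 kb upstream and no. 3996 at 303 kb downstream. The other 6 of the 8 genes in the list were nearest to none.

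For secreted hepatocyte products the count rested on 1 gene, too few to tell from the 2.14% of all genes. Of 90 genes for plasma proteins and hepatokines, 1 (1.11%) was the nearest gene of a distal site, Sepp1, the selenium transport protein (no. 2436, 53.2 kb upstream), although 41 of the 90 (45.6%) had a GATA4 OS in the body or within 50 kb of a TSS. Only 1.68 Mb of distal sequence was nearest to these genes. The 1 site made 0.597 per Mb, beside 0.701 for all distal sequence and 1.49 at 50 to 100 kb. Genes of hepatic metabolism and transport had 9 sites nearest to 9 of 104 (8.65%), at 2.5 per Mb. They included Ppp1r3b, a glycogen-targeting subunit (no. 418, 164 kb upstream), and Aldh1a1, a retinaldehyde dehydrogenase (no. 604, 52.3 kb downstream). Further down the list were Xdh, xanthine dehydrogenase (no. 1499), Cyp7b1, an oxysterol hydroxylase (no. 1790), Elovl6, a fatty acid elongase (no. 2197), Cps1, the entry enzyme of the urea cycle (no. 2892), Elovl5 (no. 3715) and Sik1, a kinase that restrains gluconeogenesis (no. 4399).

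The remaining 3 lists had 9 sites in all. Stellate cell and matrix genes had 6 sites nearest to 6 of 47 genes (12.8%, 1.11 per Mb), with Ctgf, a matricellular growth factor, first (no. 316, 101 kb upstream, 3 WGATAR in the peak). Hgf, hepatocyte growth factor, had no. 1386 at 82.8 kb upstream, and Tgfb2 had no. 1493 at 234 kb downstream. Pdgfra, Ednrb and Dcn followed with nos. 2292, 3779 and 4033. Kupffer and blood cell genes had 2 sites, no. 2654 near Runx3 and no. 3676 near Slc40a1, the iron exporter ferroportin, for 2 of 41 genes (4.88%). These genes had 0.75 Mb of distal sequence, so the 2 sites made 2.67 per Mb. Of 31 cardiac GATA4 target and contractile genes, 1 was nearest to a distal site, Tbx20 (no. 4332, 125 kb upstream), at 0.307 sites per Mb.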

How the data were processed

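The authors aligned the reads to mm9, kept uniquely placed reads, called peaks with SPP and with MACS2, and set thresholds by the irreproducible discovery rate. The submitters' processing notes name Bowtie 0.12.7, MACS2 2.0.10 and bedtools 2.16.1. The 3 deposited files hold the positions of SPP, MACS2 and common peaks over both replicates together, and the score, which the authors set to 1000 for every peak. No read counts are in these files, so the depth behind a site is unknown and intervals cover the number of sites only.

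Peaks were placed on GENCODE M1 (22367 protein-coding genes, 51710 protein-coding transcripts) and NCBI Build 37, the same build as mm9. Coordinates count from 1. Motifs were matched exactly. Shares have Wilson 95% intervals and differences Newcombe's. Two-sided Fisher's exact tests compared distal sites with gene-flanking sites and with all other sites. Overlap needed 1 bp. The reference is not repeat-masked, and the planned repeat comparison was replaced by 24-base words with 5 or more copies, a choice made after seeing the data.

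The members and gene lists were chosen with earlier results of these data known. Sites named were the first 10 by number, the 5 farthest and those in the 10 chains with most sites (ties by lowest number). Also named were those of the 10 genes with most distal sites (at least 4), up to 8 sites per gene list and the 5 with most WGATAR. Sites of 2 genes that this names are not reported here. Others named in the text were chosen after their values were seen. Scripts ran under Python 3.11.15 with scipy 1.17.1 and pysam 0.24.0, and were tested on simulated data.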

Additional observations from a re-analysis of the deposited data

How the results depend on the processing

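The number of distal sites was 703. It was 373 beyond 100 kb and 463 when every annotated gene counted, and it stayed within 1.5 times of 703 at 25 kb (1034), with the longest transcript, the whole peak, every transcript of protein-coding genes, and in all SPP or all MACS2 peaks. No paired analysis was possible because there is 1 pooled sample.

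Against gene-flanking sites, the small differences changed sign in several settings, none of which passed the test except the last named here. For WGATAR in the central 200 bp the difference was -0.81 points with every annotated gene, -0.0082 with the longest transcript, -0.15 with the whole peak, -0.42 in the central 100 bp and -1.11 with WGATA or GATAR accepted. For 2 or more WGATAR it was 0.69 in the central 100 bp, 0.39 in 500 bp and 1.03 in the peak as called. For the leading 50% of the list it was 0.46 at 25 kb and 0.39 with every annotated gene. For another site nearby it was -1.26 within 5 kb and -6.80 within 50 kb, where fewer distal than gene-flanking sites (45.4% and 52.2%) had a neighbour (Fisher's exact test, adjusted p = 0.033). That comparison at 50 kb is not independent of the rule that defines the classes.

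Against all other sites, a neighbour within 5 kb gave -0.15 points and within 50 kb -3.19. Differences that passed only under an alternative were 4.94 points for the leading 50% of the list at 25 kb (adjusted p = 0.036), 7.21 for WGATAR in all MACS2 peaks (0.00075) and 6.61 for 2 or more WGATAR in 500 bp (0.02), all by Fisher's exact test. The cause was not tested. Motifs of other factors were compared in the main setting only. No alternative was run for the FOX, KLF and CTCF differences that passed. With a reach of 10 kb, 25.9% of the nearest genes had another site, beside 12% of all genes. The repeat-masked alternatives were not run because the reference carries no masking. The order of the list stands in for strength, and no read depth limits can be given.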
